A study of Drosophila melanogaster with 12 samples.

Results

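The genes described here are the 6 annotated members of the CheB38 and CheB42 clusters of Drosophila melanogaster, CheB38a, CheB38b, CheB38c, CheB42a, CheB42b and CheB42c. They were chosen by name, through their FlyBase identifiers, from 17807 gene identifiers, and all 6 passed the filter on low counts that left 10996 genes for testing. RNA-seq counts came from male forelegs in 12 libraries, 3 biological replicates for each of 4 genotypes. Strain CO13N and a CS/CO13N hybrid are called selective by the series, which sets them against the strains CS and RG11N, called promiscuous. The labels give no transgene or treatment for any group, no age, and neither the direction nor the generation of the hybrid cross.

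CheB genes encode small secreted proteins distantly related to the vertebrate GM2 activator protein, which binds lipids. Like CheA genes, they are known from taste hairs, and several are active mainly in the forelegs of males, which touch other flies during courtship. CheB42a is known from support cells of male foreleg taste hairs and affects male courtship. Its neighbour ppk25 encodes a DEG/ENaC channel subunit of pheromone-sensing taste neurons. For the other members no role is stated here.

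The CheB38 genes lie side by side on chromosome arm 2L, all on the minus strand, and the CheB42 genes lie on arm 2R. In dm6 coordinates CheB38b (FBgn0067311) spans 2L:20816456-20817270, CheB38a (FBgn0067312) spans 2L:20817815-20818532 and CheB38c (FBgn0032888) spans 2L:20820089-20820867. CheB42b (FBgn0066293, minus strand) spans 2R:6943096-6943995 and CheB42a (FBgn0053348, plus strand) spans 2R:6949482-6950284. CheB42c (FBgn0066292, minus strand) has its 3 coding exons beside these but spans 2R:6944614-6971637, because its 2 noncoding exons lie far upstream. CheB42a and ppk25 lie inside an intron of CheB42c on the opposite strand, 100 bases apart. The whole CheB42 cluster lies within mim, and the exons of CheB42c share 961 of their 1649 bases (58.28%) with exons of mim on the same strand, none of them coding for CheB42c.

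**Figure D1:**
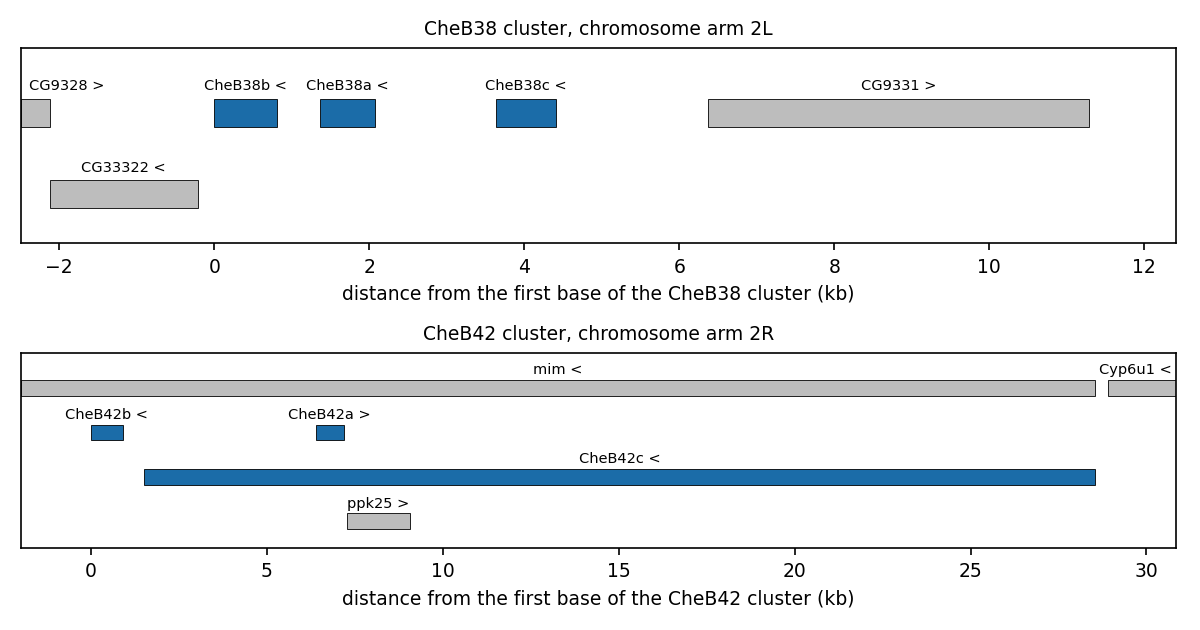
Map of the CheB38 cluster (top) and the CheB42 cluster (bottom), with distance in kb from the first base of each cluster on the horizontal axis. Blue boxes are the 6 CheB genes, grey boxes are neighbouring or overlapping genes drawn on separate rows where they overlap, and arrowheads give the strand; the CheB38 genes are compact neighbours, whereas CheB42c spans CheB42a and ppk25.

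All 6 genes have the same layout of coding sequence. Each has 3 coding exons and a middle coding exon of 177 bp, and the coding sequences have 196 to 198 codons. Of 1841 protein-coding genes with exactly 3 coding exons, 19 (1.03%) have a middle coding exon of that length. Outside the clusters 4 of the 6 other CheB genes share it, and 0 of the 8 CheA genes have exactly 3 coding exons. The sources used here do not give whether counting used strand or how reads matching several copies were assigned. No sequences were compared here, so how alike the copies are is not known. The split of counts among CheB38a, CheB38b and CheB38c, between CheB42b and CheB42c, and between CheB42c and mim is therefore uncertain.

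Total counts per library ranged from 26374831 to 36034966, and the 6 genes together took 0.407% to 0.975% of them. Levels of single genes below are depth-scaled counts (CPM) with library sizes adjusted by TMM, given as mean ± SD of 3 libraries. Summed levels are scaled by total counts without TMM. In bulk tissue, fewer cells of a type and less RNA per cell cannot be told apart. Of 6 genes listed as markers of taste hair support cells, 5, such as Su(H) and Sox15, had counts in every library. The other, Poxn, had none in 3 libraries and at most 1.28 CPM in the others. The summed level of the 6 was 1350.71 to 2058.58 CPM, and male reproductive tract genes reached at most 2.58 CPM. Whether the counts of these support cell markers come from taste hairs or from other sense organs of the leg was not tested. Transcripts of odorant receptors, which mark antennal tissue, summed to 88.6 to 248 CPM in the 3 CS libraries, to 250 CPM in replicate 3 of the hybrid and to 138 CPM in replicate 3 of RG11N, against 13.4 to 24.1 CPM in the 7 others. Muscle genes ranged from 1157 to 14652 CPM without separating the genotypes, and nerve genes were highest in RG11N, at 7738 to 8538 CPM against 5175 to 7032 CPM elsewhere. The part of the nerve genes in the differences of RG11N was not tested.

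CheB42a was the most abundant member. By mean CPM it ranked 27 of the 10996 tested genes, followed by CheB38b at 69, CheB42c at 227, CheB42b at 314, CheB38a at 666 and CheB38c at 4800. Per kb of exon, CheB42a reached 3840 CPM in CO13N, 4043 in hybrid males, 4679 in CS and 4672 in RG11N. CheB38b reached 938, 1430, 3722 and 2720 CPM per kb in the same order, so that it was far below CheB42a per length in CO13N and nearer to it in CS. CheB38c lay between 12.7 CPM per kb in hybrid males and 79.6 in RG11N. CheB42b lay between 703 and 814 CPM per kb. For CheB42c the range was 324 to 460 CPM per kb, over a length that includes the exons shared with mim.

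CheB38a and CheB38b differed among the genotypes, each in its own pattern. CheB38a was 14.3-fold lower in RG11N than in CS, where it was highest. CheB38b was lower in both selective genotypes than in both promiscuous ones. CheB38c was the most variable member and passed in 0 comparisons in edgeR and 1 in DESeq2. Of the CheB42 genes, 0 passed the test in any of 8 comparisons, in edgeR or in DESeq2, with 1 edgeR value, that of CheB42c in CO13N versus CS, at an unadjusted p under 0.05. The ratio of CheB42c to each of the other CheB42 genes differed among the genotypes, by the exact test given below.

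CheB38b had 574, 411 and 971 CPM in CO13N, and 664, 1255 and 1062 CPM in hybrid males. In CS it had 1801, 2352 and 3607 CPM, and in RG11N 1399, 2486 and 1786 CPM. All 6 libraries of the selective genotypes lay below all 6 of the promiscuous ones, as was the case for 0.518% of tested genes, whereas the genotypes within each class overlapped. The mean level was 652 ± 288 CPM in CO13N, 994 ± 301 in hybrid males, 2587 ± 925 in CS and 1890 ± 551 in RG11N. Averaged over the genotypes of each class, CheB38b was lower in the selective class by a log2 fold change of -1.46 ± 0.29 (SE), or 2.75-fold, and passed edgeR's quasi-likelihood test (adjusted p = 0.026).

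Of the single pairs, CO13N versus CS passed for CheB38b, with a log2 fold change of -1.99 ± 0.42 (edgeR, adjusted p = 0.0389). The pairs CO13N versus RG11N (-1.54 ± 0.41, adjusted p = 0.0839), hybrid versus CS (-1.38 ± 0.41, adjusted p = 0.295) and hybrid versus RG11N (-0.93 ± 0.40, adjusted p = 0.283) did not pass in edgeR. DESeq2 called CheB38b lower in CO13N versus RG11N (adjusted p = 0.00563) and in hybrid versus CS (adjusted p = 0.0438), but not in hybrid versus RG11N (adjusted p = 0.171). In edgeR CheB38b is not among the 3 genes (0.0273%) called lower in all 4 pairs. The averaged call for CheB38b rested on the full set: it was lost when any 1 of 8 libraries was left out, namely CO13N replicates 1 and 2, hybrid replicates 1 and 3, CS replicates 2 and 3, and RG11N replicates 2 and 3 (adjusted p 0.0522 to 0.0747, log2 fold change -1.32 to -1.50). The CO13N versus CS call was lost without CO13N replicates 1 or 2, hybrid replicates 2 or 3, CS replicates 2 or 3, or RG11N replicates 1 or 3 (adjusted p 0.0546 to 0.151).

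CheB38a had 217, 168 and 305 CPM in CO13N and 239, 329 and 299 CPM in hybrid males. The CS libraries had 380, 428 and 674 CPM. In RG11N it had only 34.1, 39.8 and 29.6 CPM. RG11N lay far below every other library, CS lay above every other library, and CO13N and the hybrid overlapped between them. The mean in RG11N was 34.5 ± 5.1 CPM, against 230 ± 70 in CO13N, 289 ± 46 in hybrid males and 494 ± 158 in CS.

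RG11N was lower than CS in CheB38a by a log2 fold change of -3.84 ± 0.27, or 14.3-fold (edgeR, adjusted p = 2.73e-06). CO13N was 6.67-fold higher than RG11N (log2 2.74 ± 0.26, edgeR adjusted p = 6.93e-05) and the hybrid 8.38-fold higher (log2 3.07 ± 0.26, edgeR adjusted p = 2.54e-05). These 3 CheB38a calls were kept in all 12 fits that left out 1 library. CO13N was also lower than CS, by 2.15-fold (log2 -1.10 ± 0.25, edgeR adjusted p = 0.0289). That CheB38a call was lost without CO13N replicates 1 or 2, CS replicate 2, or RG11N replicates 1 or 3 (adjusted p 0.0503 to 0.109). The hybrid had 1.71-fold less than CS without passing (log2 -0.77 ± 0.24, edgeR adjusted p = 0.286), although DESeq2 called it (adjusted p = 0.0456).

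Averaging the classes gave CheB38a the opposite sign from CheB38b. CheB38a was higher in the selective class by a log2 fold change of 0.98 ± 0.17 (edgeR, adjusted p = 0.00593), although both selective genotypes were below CS. The positive average therefore came with opposite directions against the 2 promiscuous strains, higher than RG11N and lower than CS.

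**Figure D2:**
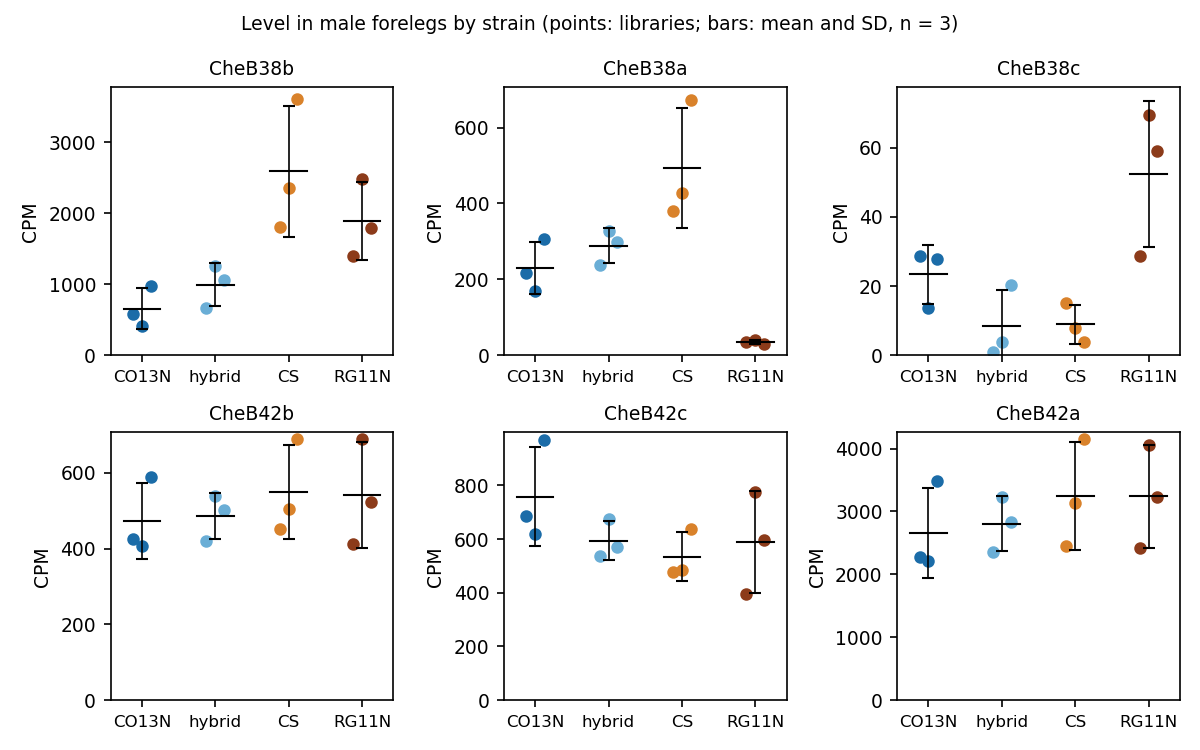
Level of each gene in CPM (vertical axis, linear and starting at 0, scaled for each gene) in the 4 genotypes, with 1 point per library and the mean and SD of 3 libraries as bars; the lower SD bar of CheB38c in hybrid males runs below 0 and is cut off. CheB38a is near 0 on its scale in RG11N only, and CheB38b is lower in CO13N and the hybrid than in CS and RG11N. The CheB42 genes overlap among genotypes, with CheB42c highest in CO13N by mean.

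CheB38c was the least abundant and the most scattered member. It had 28.7, 13.6 and 27.8 CPM in CO13N and 1.02, 3.92 and 20.2 CPM in hybrid males. CS had 15.1, 7.82 and 3.80 CPM, and in RG11N 28.7, 69.6 and 59.1 CPM. RG11N replicates 2 and 3 lay above every other library and RG11N replicate 1 was level with the highest CO13N library, while CO13N, the hybrid and CS overlapped. Hybrid replicate 1 held 31 counts of CheB38c and hybrid replicate 3 held 719.

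Within genotypes the SD of log2 CPM of CheB38c was 1.25, and of 1436 genes with a mean level within 0.5 log2 units of it, 0.557% had a larger one. The median SD of all tested genes was 0.328. CheB38c passed the edgeR test in 0 of the 8 comparisons, with 2 at an unadjusted p under 0.05. RG11N had 5.88-fold more than CS (log2 2.56 ± 1.00, edgeR adjusted p = 0.215) and the hybrid had 6.22-fold less than RG11N (log2 -2.64 ± 1.00, edgeR adjusted p = 0.221). DESeq2 gave the latter an adjusted p of 0.0495 and the former 0.0548. At this scatter the 95% interval of CO13N versus CS for CheB38c ran from -0.83 to 3.61 on the log2 scale.

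CheB42a had 2281, 2212 and 3490 CPM in CO13N and 2351, 3225 and 2829 CPM in hybrid males. In CS it had 2447, 3136 and 4145 CPM, and in RG11N 2424, 4062 and 3226 CPM. The 4 genotypes overlapped throughout. Selective and promiscuous genotypes differed in CheB42a by a log2 fold change of -0.25 ± 0.17 (95% interval -0.61 to 0.12, edgeR adjusted p = 0.518).

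CheB42b overlapped in the same way, with 408 to 590 CPM in CO13N, 420 to 538 in hybrid males, 453 to 689 in CS and 412 to 691 in RG11N. Its averaged log2 fold change was -0.18 ± 0.14 (95% interval -0.49 to 0.12, edgeR adjusted p = 0.587). These intervals do not show that the genotypes are alike: for both genes they leave room for a decrease of up to -0.61 and -0.49.

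CheB42c had 688, 619 and 969 CPM in CO13N and 537, 675 and 570 CPM in hybrid males. CS libraries had 477, 487 and 639 CPM, and in RG11N 397, 775 and 598 CPM. CO13N was highest by mean, at 758 ± 185 CPM, but its lowest library lay within the range of each other genotype. The largest pairwise difference of CheB42c, CO13N versus CS, was a log2 fold change of 0.51 ± 0.23 with an unadjusted p of 0.0427 (edgeR, adjusted p = 0.332). The averaged contrast gave 0.26 ± 0.16 (95% interval -0.09 to 0.60, edgeR adjusted p = 0.463). mim, whose exons overlap those of CheB42c, had an averaged log2 fold change of -0.02 ± 0.16.

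Counted by comparison and against all tested genes, CheB38a and CheB38b made up every edgeR call among the members. In CO13N versus CS 2 of the 6 members were called, both lower, where 3.14% of all tested genes were called. In CO13N versus RG11N 1 was called (4.1% of all), in hybrid versus RG11N 1 (4.47%) and in RG11N versus CS 1 (5.77%), each time CheB38a. In hybrid versus CS 0 were called in edgeR (0.973% of all), with 2 at an unadjusted p under 0.05 and 2 in DESeq2. In the averaged selective versus promiscuous contrast 2 were called, in opposite directions (3.92% of all).

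The median log2 fold change of the 6 members in the averaged contrast was -0.21, beside 0.01 over all tested genes. Libraries of the CO13N and CS groups did not overlap for 2 members, CheB38a and CheB38b, with CO13N lower, and the same 2 did not overlap between the hybrid and CS. Over all tested genes that pattern held for 8.76% and 6.26%. Against RG11N, both selective genotypes were lower without overlap in CheB38b and CheB38c (11.3% of genes for CO13N, 11.6% for the hybrid) and higher without overlap in CheB38a (11.4% and 11.8%). For CheB38c in CO13N the gap was very narrow, with 28.67 CPM in CO13N replicate 1 and 28.72 CPM in RG11N replicate 1. RG11N and CS did not overlap in CheB38a, lower in RG11N as for 9.8% of genes, or CheB38c, higher in RG11N as for 11.7%.

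**Figure D3:**
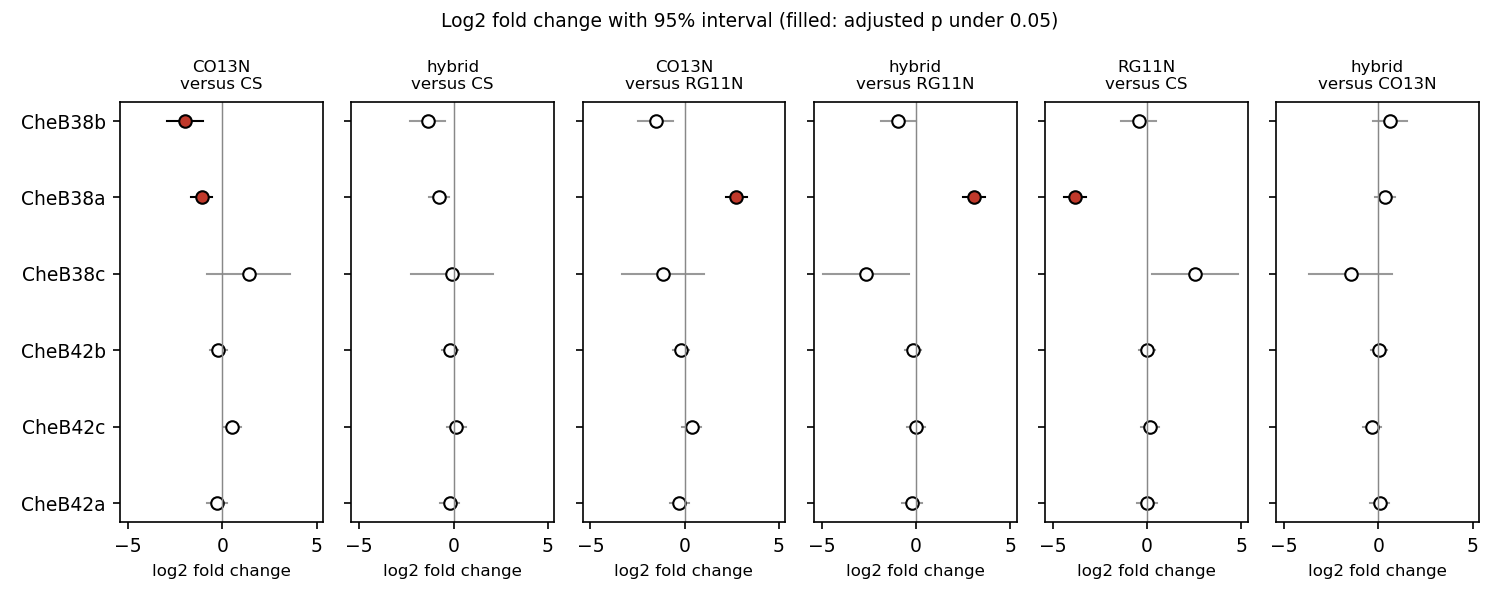
Log2 fold change (horizontal axis) of each of the 6 genes in the 6 pairs of genotypes, with 95% intervals from edgeR; filled red points have an adjusted p under 0.05 over all 10996 genes. The filled points are CheB38a in 4 pairs and CheB38b in CO13N versus CS, and the CheB42 genes sit within 0.51 log2 units of 0.

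The hybrid was not separated from its parent strain CO13N for any member. In hybrid versus CO13N 0 of 6 members were called in edgeR, 0 had an unadjusted p under 0.05, and 0 were called in DESeq2 (edgeR called 0.255% of all tested genes). The log2 fold change was 0.33 ± 0.24 for CheB38a (95% interval -0.20 to 0.86) and 0.61 ± 0.40 for CheB38b (-0.31 to 1.52). Against the mid-parent, the mean of both parents on the log2 scale, 0 members were called in edgeR, with 0 at an unadjusted p under 0.05 and 0 in DESeq2 (0.109% of all tested genes in edgeR). On a scale where CS is 0 and CO13N is 1 in mean log2 CPM, the hybrid stood at 0.672 for CheB38a and 0.678 for CheB38b, the members for which the parents differed. These positions are given as descriptions without an error.

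Whether neighbouring copies keep a fixed ratio in every genotype was asked of the 6 pairs within the clusters, with log2 ratios of counts per library. The ratio is not corrected for exon length, which was taken from the same reference annotation for every genotype. Differences between the strains in sequence, exon use or read alignment were not examined. An exact permutation test of the between-genotype F statistic used all 369600 assignments of the 12 libraries, with Benjamini-Hochberg adjustment over the 6 pairs. It asks whether any genotypes differ, not which. Ratios of other gene pairs were not computed, so how common such differences or separations are among gene pairs is not known.

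CheB38b had 2.65, 2.45 and 3.18 counts for each count of CheB38a in CO13N, and 2.78, 3.82 and 3.55 in hybrid males. In CS it had 4.75, 5.50 and 5.35, and in RG11N 41.0, 62.5 and 60.3. CS lay above CO13N and the hybrid without overlap, and RG11N lay far beyond all of them. The mean log2 ratio of CheB38a to CheB38b was -1.46 ± 0.19 (SD) in CO13N, -1.75 ± 0.24 in hybrid males, -2.38 ± 0.11 in CS and -5.75 ± 0.34 in RG11N, and differed among genotypes (exact permutation p = 0.00013, adjusted p = 0.000779). CheB38a thus made up 26.1% of CheB38 counts in CO13N, 22.9% in hybrid males, 16.1% in CS and 1.82% in RG11N.

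The summed level of the CheB38 genes was 918 CPM in CO13N, 1302 in hybrid males, 3049 in CS and 1931 in RG11N, and CheB38b held most of it in each (71.3%, 76.5%, 83.5% and 95.6%). The ratio of CheB38a to CheB38c also differed among genotypes (exact permutation p = 0.00221, adjusted p = 0.00331). The ratio of CheB38b to CheB38c did so more weakly (exact permutation p = 0.0356, adjusted p = 0.0428), and that call was lost without any of CO13N replicates 1, 2 or 3, hybrid replicate 2, CS replicate 2, or RG11N replicates 1, 2 or 3 (adjusted p 0.0549 to 0.0745).

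In the CheB42 cluster CheB42a and CheB42b kept nearly 1 ratio. CheB42a had 5.38 to 5.92 counts per count of CheB42b in CO13N, 5.60 to 5.99 in hybrid males, 5.40 to 6.23 in CS and 5.88 to 6.18 in RG11N. The genotypes overlapped, the strain means differed by at most 0.10 log2 units, and the test did not pass (exact permutation p = 0.398, adjusted p = 0.398).

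CheB42c departed from both. CheB42a had 3.32, 3.57 and 3.60 counts per count of CheB42c in CO13N, and 4.38, 4.78 and 4.96 in hybrid males. The CS values were 5.12, 6.44 and 6.49, and in RG11N 6.10, 5.24 and 5.40. CO13N lay below all other libraries, the hybrid came next without overlap with CS or RG11N, and CS and RG11N overlapped. The mean log2 ratio was 1.81 ± 0.07 (SD) in CO13N, 2.23 ± 0.09 in hybrid males, 2.58 ± 0.19 in CS and 2.48 ± 0.12 in RG11N (exact permutation p = 0.000909, adjusted p = 0.00182).

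The ratio of CheB42b to CheB42c differed likewise, from -0.67 ± 0.06 in CO13N to 0.03 ± 0.09 in CS (exact permutation p = 0.000909, adjusted p = 0.00182). CheB42c took 19.5% of CheB42 counts in CO13N, 15.3% in hybrid males, 12.5% in CS and 13.4% in RG11N, whereas CheB42b took 12.3% to 12.7% in all 4. The summed CheB42 level was 3958, 3920, 4265 and 4270 CPM in the same order.

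**Figure D4:**
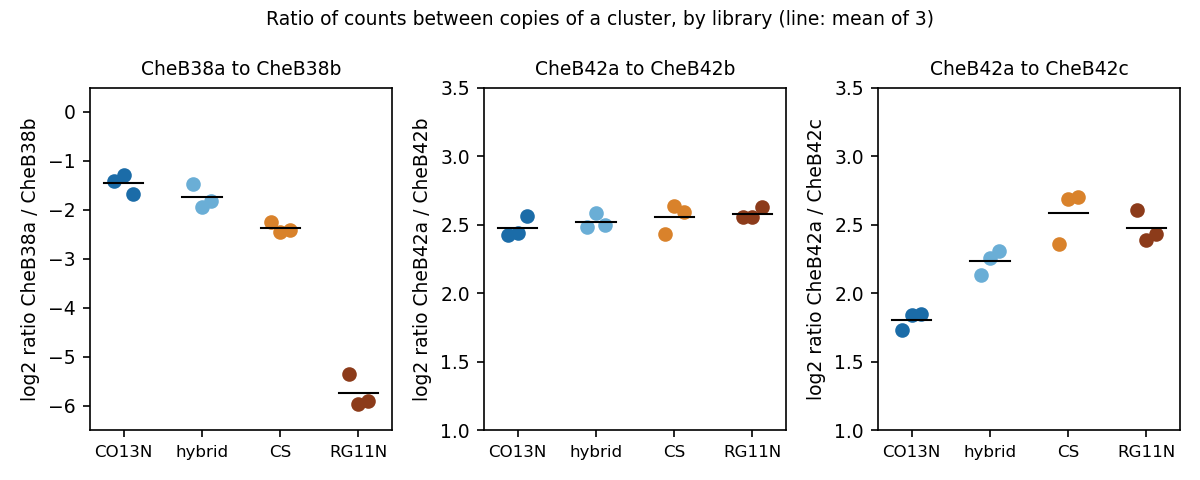
Log2 ratio of counts between copies (vertical axes, with different ranges) for CheB38a to CheB38b, CheB42a to CheB42b and CheB42a to CheB42c, with 1 point per library and a line at the mean of 3. The CheB38a to CheB38b ratio falls to about -5.75 in RG11N, the CheB42a to CheB42b ratio stays between 2.43 and 2.64 in all libraries, and the CheB42a to CheB42c ratio is lowest in CO13N, at 1.81.

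In 5 of the 6 members the same library of each genotype was highest. The lowest library was shared too, except in RG11N: there CheB38a was lowest in replicate 3, CheB38b and the CheB42 genes in replicate 1. CO13N replicate 3, hybrid replicate 2, CS replicate 3 and RG11N replicate 2 had the highest level of their genotype in each member other than CheB38c. The summed level of the 14 other CheA and CheB genes was highest in the same 4 libraries of their genotypes, at 19356, 18799, 22409 and 22869 CPM. So were the summed support cell markers, at 1924, 1699, 1989 and 2059 CPM, and the summed pheromone taste neuron genes, at 2070, 1770, 2258 and 2582 CPM. Expressed relative to the CheA and CheB sum, the SD within genotypes fell from 0.320 to 0.0959 log2 units for CheB42a, from 0.274 to 0.0854 for CheB42b and from 0.296 to 0.109 for CheB42c. It also fell for CheB38b, from 0.486 to 0.291, and for CheB38a, from 0.336 to 0.254. For CheB38c it was 1.25 before and 1.26 after. Relative to the support cell markers the SD was 0.194 for CheB42a, 0.155 for CheB42b, 0.208 for CheB42c, 0.372 for CheB38b, 0.221 for CheB38a and 1.32 for CheB38c.

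**Figure D5:**
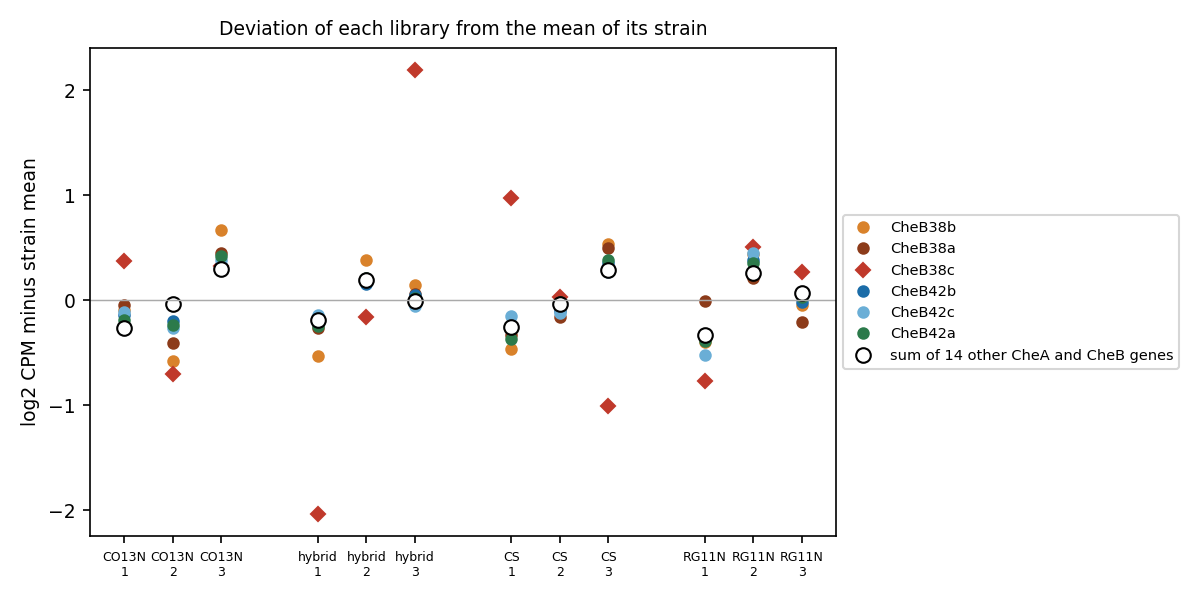
Deviation of log2 CPM from the mean of the genotype (vertical axis) for each of the 12 libraries, with filled circles for 5 of the genes, red diamonds for CheB38c and open circles for the summed level of the 14 other CheA and CheB genes. The filled circles are highest in the same library of each genotype, whereas CheB38a departs from the others in RG11N replicates 1 and 3. CheB38c deviates on its own, with an SD within genotypes of 1.25 log2 units.

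As a share of the other CheA and CheB genes, CheB42a was almost the same in each genotype. It amounted to 16.8% ± 1.5 of their summed level in CO13N, 17.1% ± 0.4 in hybrid males, 17.0% ± 1.5 in CS and 16.4% ± 0.6 in RG11N. CheB42b amounted to 2.75% to 3.02%. CheB42c amounted to 4.82% ± 0.48 in CO13N, 3.65% ± 0.18 in hybrid males, 2.83% ± 0.19 in CS and 2.95% ± 0.21 in RG11N.

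With the log2 of that sum as a covariate, a fit chosen after seeing the data, CheB42c passed in CO13N versus CS (log2 fold change 0.75 ± 0.13, edgeR adjusted p = 0.00147). It also passed in CO13N versus RG11N (0.69 ± 0.14, edgeR adjusted p = 0.00503) and in the averaged contrast (0.52 ± 0.10, edgeR adjusted p = 0.00375). CheB38a and CheB38b kept their averaged calls there, at 1.18 ± 0.13 (edgeR adjusted p = 3.85e-05) and -1.10 ± 0.15 (edgeR adjusted p = 0.000866). CheB42a and CheB42b were not called in that fit. Over all tested genes the fit called 391 in place of 345 in CO13N versus CS. It called 385 in place of 451 in CO13N versus RG11N and 371 in place of 431 in the averaged contrast. The sum used as covariate includes CheA75a and CheB53a, which were themselves called between genotypes in the main fit.

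Odorant receptor transcripts were high in all CS libraries and so moved with the contrasts that involve CS. In CheB38a, CheB38b and the CheB42 genes, hybrid replicate 3 lay between the other libraries of its genotype, and RG11N replicate 3 did so except in CheB38a, where it was lowest. In CheB38c, hybrid replicate 3 was the highest of its genotype, at 20.2 CPM against 1.02 and 3.92, and RG11N replicate 3 lay between the others. Whether that high CheB38c value goes with the odorant receptor transcripts was not tested. With the log2 odorant receptor sum as a covariate the averaged log2 fold change was 0.97 for CheB38a (edgeR adjusted p = 0.0608) and -1.39 for CheB38b (edgeR adjusted p = 0.160), and neither was called. Without hybrid replicate 3 and RG11N replicate 3 together these values were 0.92 (edgeR adjusted p = 0.0758) and -1.50 (edgeR adjusted p = 0.132). The CO13N versus CS calls of both genes were lost under both settings as well, with log2 fold changes of -1.12 and -1.10 for CheB38a and -1.85 and -1.99 for CheB38b, beside -1.10 and -1.99 as reported. Over all tested genes the number called with the covariate was 98 in place of 345 in that comparison and 208 in place of 431 in the averaged one. The 3 pairwise calls of CheB38a that involve RG11N were kept under both.

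The 14 other CheA and CheB genes were compared as the rest of the family. In the averaged contrast 0 of 14 were called higher and 1 lower, CheA75a (log2 fold change -0.56 ± 0.13, edgeR adjusted p = 0.0166), with a list median of -0.25. CheB53a was lower in hybrid males than in RG11N (-1.01 ± 0.24, edgeR adjusted p = 0.0334) and higher in RG11N than in CS (1.04 ± 0.24, edgeR adjusted p = 0.0238). In CO13N versus CS 0 of the 14 were called in edgeR, with 5 at an unadjusted p under 0.05.

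Of the pheromone taste neuron genes, 0 of 14 tested were called in the averaged contrast by edgeR, with 3 at an unadjusted p under 0.05. In the pairs with RG11N some were called by edgeR. These were 4 higher in RG11N versus CS (5.77% of all tested genes called), 3 lower in hybrid versus RG11N (4.47%) and 1 lower in CO13N versus RG11N (4.1%). ppk25, the neighbour of CheB42a, had an averaged log2 fold change of -0.27 ± 0.16 (edgeR adjusted p = 0.453). Of the 6 listed support cell genes 0 were called in the averaged contrast by edgeR, with 1 at an unadjusted p under 0.05 and a median of -0.02. Among 6 tested odorant-binding protein genes of taste hairs, Obp57e (-1.06 ± 0.14, edgeR adjusted p = 0.000125) and Obp56h (-1.92 ± 0.19, edgeR adjusted p = 6.93e-05) were lower in the selective class and Obp56d (0.73 ± 0.15, edgeR adjusted p = 0.0125) was higher.

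Of the 5 nearest genes on each side of the CheB38 cluster 9 were tested and 1 was called in the averaged contrast, CG9331, whose start lies 1960 bases beyond CheB38c. It had 96.2, 120 and 76.3 CPM in CO13N, 116, 102 and 98.8 in hybrid males, 56.8, 41.7 and 35.4 in CS, and 52.8, 50.9 and 59.4 in RG11N. Its level was higher in every selective library than in every promiscuous one, opposite to CheB38b. The share of all tested genes with that pattern is not given here. CG9331 was called higher in all 4 selective-promiscuous pairs, as were 20 genes (0.182%), and averaged 1.04 ± 0.13 on the log2 scale (edgeR adjusted p = 4.07e-05). A single pair was lost without CO13N replicate 2 (adjusted p = 0.0762) and with the odorant receptor covariate (adjusted p = 0.0719). Of the 11 tested genes around or overlapping the CheB42 cluster, 0 were called in the averaged contrast by edgeR, with 2 at an unadjusted p under 0.05.

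The genes whose level over the 12 libraries was most like that of each member were ranked by Pearson's r of log2 CPM among 8849 genes, as a description. CheB38a was followed most closely by Ldsdh1 (r = 0.945) and CG40160 (r = 0.944), both lowest in the RG11N libraries. For CheB38b the closest was CheA86a (r = 0.959), for CheB42a CheB98a (r = 0.953) and the odorant-binding protein gene Obp19b (r = 0.950), and for CheB42b CG13428 (r = 0.956) and Obp19b (r = 0.942). CheB42c was closest to CG13707 (r = 0.960) rather than to a CheA or CheB gene, and CheB38c to CR14117 (r = 0.904). All values come from the same 12 libraries, so r also carries any variation that the libraries share.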

How the data were processed

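Forelegs of males were profiled by polyA RNA-seq in 12 libraries, with groups taken from the labels. The deposited values are raw, whole-number counts for each FlyBase identifier. Subread and the build dm6 are named per the submitters' processing notes; versions, annotation release, strand setting and treatment of multiply aligned reads are not given in the sources used here. Positions, exons and symbols came from Ensembl BDGP6.54 release 115, the same assembly as dm6, which matched 17710 of 17807 identifiers.

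After filterByExpr (minimum count 10) had left 10996 genes, edgeR 4.0.16 in R 4.3.3 was run with TMM normalization and its robust quasi-likelihood test, over 4 genotype means and 8 residual degrees of freedom. Calls are Benjamini-Hochberg adjusted p-values under 0.05 over all tested genes, in 8 comparisons. Values after ± beside log2 fold changes are standard errors approximated by dividing the fold change by the root of F. The p-values set differences against the spread between libraries of a genotype. They do not cover the spread among strains of a class, so a class difference cannot be told from differences among these particular strains. Log2 CPM used a prior count of 2, and ratios added 0.5 counts, with a smallest possible p of 6.49e-05. Fits and ratio tests were tested on simulated data. Alternatives used DESeq2 1.42.0 and other settings given in the closing section. Reaching 3 counts takes 0.0833 to 0.114 CPM in a library, which covers counting error only.

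The 6 members and all gene lists were chosen with earlier results of these data known. Named genes are the members, called neighbours and overlapping genes, and up to 3 most similar genes per member. From lists other than the nerve and glial genes, they include up to 4 called genes with the smallest p in the averaged contrast. In that contrast edgeR called 2 of 10 nerve genes lower and 2 of 8 glial genes higher, beside 3.92% of all tested genes called. Those nerve and glial genes are not named here. CheB53a was named after its values were seen. Summed marker levels, summed cluster levels, and the levels and SDs of members set against a sum used total counts without TMM. Annotation and figures used Python 3.11.15, numpy 2.4.6, pandas 2.3.3 and matplotlib 3.10.9.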

Additional observations from a re-analysis of the deposited data

How the results depend on the processing

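Across comparisons and alternatives other than leaving out 1 library, the number of members called stayed within 1.5 times the reported one in 51 cases and moved in 12. In CO13N versus CS the 2 calls became 1 with no filter on low counts, and 0 with these strains fitted alone, with the odorant receptor covariate, or with hybrid replicate 3 and RG11N replicate 3 left out. Over all genes 345 calls became 354, 309, 98 and 329 in these settings. In CO13N versus RG11N the 1 call became 2 with DESeq2 and 3 with the covariate of the other CheA and CheB genes. In hybrid versus CS 0 became 2 with DESeq2 and 1 with that covariate, and in hybrid versus RG11N 1 became 2 with DESeq2. Over all genes DESeq2 called 828 in place of 451, 230 in place of 107 and 852 in place of 492 in these comparisons, and the CheA and CheB covariate gave 385 in the first and 126 in the next. The averaged contrast went from 2 calls to 0 with the odorant receptor covariate and with the pair of libraries left out, where all genes went from 431 calls to 208 and 273. Leaving out 1 library gave 0 to 2 calls in CO13N versus CS and 1 to 2 in CO13N versus RG11N and in the averaged contrast. The cause was not tested. Fitting the strains of a comparison alone was not run separately for the averaged contrast, which uses all strains.

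The labels do not say whether a replicate number marks a shared batch. Same-numbered libraries of different genotypes correlated at -0.09 to 0.21 in their deviations from the genotype mean. With so few libraries per genotype, these values cannot show whether batches were shared. With a replicate block, CO13N versus RG11N had 2 members called in place of 1, CheB38b being added (adjusted p = 0.0422) as all genes went from 451 calls to 505, the log2 fold change of CheB42a in RG11N versus CS was 0.0081, and the count of calls changed in no other comparison.

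Reversed signs were those of uncalled fold changes near 0. With the CheA and CheB covariate, chosen after seeing the data, CheB42a had log2 fold changes of 0.0602 in CO13N versus RG11N, 0.017 in hybrid versus CS, 0.078 in hybrid versus RG11N, 0.039 in the averaged contrast and 0.017 against the mid-parent. CheB42b had 0.035 in CO13N versus CS, 0.11 in CO13N versus RG11N, 0.0196 in hybrid versus CS, 0.097 in hybrid versus RG11N, -0.015 in hybrid versus CO13N, 0.066 in the averaged contrast and 0.0023 against the mid-parent. With the odorant receptor covariate CheB38c turned to 0.086 in hybrid versus CS, and in RG11N versus CS CheB42a to 0.0498 and CheB42b to 0.014. Also in RG11N versus CS, CheB42a turned to 0.0015 with these strains alone and CheB42b to 0.0023 without the pair of libraries.

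With 1 library left out, log2 fold changes that changed sign ranged as follows. CheB38c in hybrid versus CS ranged from -1.87 to 0.53. CheB42a ranged from -0.20 to 0.21 in RG11N versus CS, -0.0396 to 0.33 in hybrid versus CO13N and -0.17 to 0.053 against the mid-parent. CheB42b ranged from -0.40 to 0.021 in CO13N versus RG11N, -0.30 to 0.014 in hybrid versus CS, -0.34 to 0.058 in hybrid versus RG11N, -0.23 to 0.18 in RG11N versus CS, -0.056 to 0.23 in hybrid versus CO13N and -0.13 to 0.029 against the mid-parent. CheB42c ranged from -0.23 to 0.26 in hybrid versus RG11N, -0.10 to 0.37 in RG11N versus CS and -0.19 to 0.0066 against the mid-parent. The widest difference of genotype means in the log2 ratio of CheB38b to CheB38c ranged from 3.00 to 4.27. The 5 other ratios kept their side of the threshold in all alternatives run.

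With 3 libraries per genotype, differences of the size seen in CheB42a and CheB42b could not be told from the spread between libraries. The lowest count of any member in a library was 31, above the floor of 3 counts.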
